A study of Mus musculus with 21 samples.

Results

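The expression of 10 genes of glutathione and antioxidant defence was followed in pancreatic islets of mice on 3 diets. These genes were Gsto2, Gsto1, Gpx1, Gpx3, Prdx4, Sod1, Sod2, Nfe2l2, Hmox1 and Nqo1. They were chosen with measured values of all 3 groups already known, so that their levels and differences are given as a description and no p-value is attached to them. All 10 were among the 27229 genes tested, which had a total of 10 reads or more. The islets came from male CBA mice on regular diet (RD), on high-fat diet (HFD), or on HFD formulated with O304 (HFD-O304), a compound reported to switch on every AMPK complex (AMPK is an energy-sensing protein kinase), given at 0.8 mg per g of diet. The labels name no genetic change in any group, diets began at 10 weeks of age and islets were taken at 20 weeks of age, although the methods describe the diet period as 9 weeks. Each group had 7 samples, and each sample was RNA of 150 hand-picked islets drawn from a pool of 5 mice, so that the spread between samples is a spread between pools. Because O304 was given only with HFD, the effect of O304 on islets of RD mice was not measured.

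Between 13809266 and 48922569 read pairs per sample fell on genes, and the shallowest library, HFD-O304 replicate 2, was followed by one with 27618749. HFD-O304 replicate 1 carries the diet tag HFD and was placed in its group by its title. HFD replicate 3, whose title reads HF, was placed by its diet tag, and without it the log2 difference of Gsto2 was 1.68 ± 0.15 in HFD vs RD and Gsto1 was added to the members past the threshold there, while Nfe2l2 was lost in HFD-O304 vs RD. Without HFD-O304 replicate 1, 4 members passed the threshold in HFD vs RD, where 3 did with all samples, and the numbers for HFD-O304 vs RD and HFD-O304 vs HFD stayed at 1 and 5. The log2 differences of HFD-O304 vs HFD without that library were -1.86 for Gsto2, -1.12 for Gpx3, -0.75 for Prdx4, -0.34 for Gpx1 and 0.37 for Nfe2l2, and that of Nfe2l2 in HFD-O304 vs RD was 0.27. Replicates 1 to 4 and replicates 5 to 7 carry separate runs of library numbers in all 3 groups, and values within each of these sets are given beside the results that they change. The markers of β-cells were high in every sample, with a summed level of 230278 to 327711 CPM (counts scaled to a common library total) over 7 genes, a sum carried by Ins1 and Ins2. Of these 7, Slc2a2 was lower in HFD than in RD, and in HFD-O304 vs HFD 2 were higher (Slc2a2, Ucn3) and 2 lower (Ins1, Ins2), at an adjusted p under 0.01. Gcg, the glucagon gene of α-cells, had medians of 827967, 395565 and 952011 normalized counts in RD, HFD and HFD-O304 islets, and Irx2, a transcription factor gene of α-cells, had medians of 313, 164 and 371. Both were lower in HFD than in RD and higher in HFD-O304 than in HFD at an adjusted p under 0.01. Of 2 δ-cell markers, 1 (Sst) was lower in HFD than in RD and both were higher in HFD-O304 than in HFD, where 3 of 6 duct markers (Krt19, Sox9, Cftr) were higher and 2 of 5 endothelial markers lower. Krt7 and Spp1, the duct markers with the highest medians, had log2 differences of -0.20 and -0.33 there, which did not pass. The 6 duct markers in sum had a median of 298 CPM in HFD and 268 CPM in HFD-O304 islets. Against RD, HFD-O304 islets had 1 duct marker higher and 1 endothelial marker lower. The 9 acinar markers tested (of 10 listed) ranged from 11.6 to 7979 CPM in sum between samples and none passed the threshold in any comparison, while Amy2a2 had a median of 0 in all 3 groups. The 6 fibroblast or stellate cell markers summed to 41.8 to 81.0 CPM in RD, 47.1 to 134 CPM in HFD, with 32.1 to 87.8 CPM in HFD-O304 islets, and 3 of them were lower in HFD-O304 than in HFD. The part of these cell types in the results below was not tested. In RNA of whole islets, fewer cells of a type and less RNA per cell cannot be told apart.

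Cells remove superoxide with superoxide dismutases, which turn it into hydrogen peroxide, and remove hydrogen peroxide with catalase, glutathione peroxidases and peroxiredoxins. Glutathione, a small thiol made by glutamate-cysteine ligase and glutathione synthetase, is oxidized in the reaction of glutathione peroxidases. It is restored by glutathione reductase with electrons from NADPH. NRF2, the protein of Nfe2l2, is a transcription factor that is held at a low level by KEAP1 and that binds antioxidant response elements near genes such as Nqo1 and Hmox1. β-cells are known for low levels of catalase and of glutathione peroxidase 1 compared with liver.

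Sequence before the annotated RefSeq starts (GRCm38.p6) of 5 members is shown because the differences described next are mainly theirs, with Gsto1 added as the neighbour of Gsto2. Each stretch begins 250 bases before the start and ends there, or at the first base that the annotation used for counting places in an exon: Gsto1 (chr19:47854723-47854969, plus strand) and its neighbour Gsto2 (chr19:47865295-47865533, plus strand, the first of 2 annotated starts), Gpx3 (chr11:54902604-54902771, plus strand, 168 bases) and Prdx4 (chrX:155338475-155338710, minus strand), which varied together, and Nfe2l2 (chr2:75704664-75704913, minus strand). Each is written 5′ to 3′ on the strand of its gene, and capitals mark a match to the core of the antioxidant response element, TGACNNNGC on either strand.
Gsto1: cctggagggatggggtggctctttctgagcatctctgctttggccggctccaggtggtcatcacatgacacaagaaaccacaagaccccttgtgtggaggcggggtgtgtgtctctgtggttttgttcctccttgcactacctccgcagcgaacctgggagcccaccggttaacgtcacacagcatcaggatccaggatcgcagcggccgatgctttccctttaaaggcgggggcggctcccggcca
Gsto2: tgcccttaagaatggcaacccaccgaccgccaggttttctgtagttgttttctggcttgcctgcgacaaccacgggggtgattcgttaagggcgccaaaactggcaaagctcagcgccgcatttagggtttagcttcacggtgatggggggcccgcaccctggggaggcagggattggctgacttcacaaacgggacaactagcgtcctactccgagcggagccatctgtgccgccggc
Gpx3: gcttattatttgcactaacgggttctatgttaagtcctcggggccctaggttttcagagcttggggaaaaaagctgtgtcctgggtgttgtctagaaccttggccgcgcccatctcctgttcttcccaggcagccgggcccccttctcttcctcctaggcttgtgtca
Prdx4: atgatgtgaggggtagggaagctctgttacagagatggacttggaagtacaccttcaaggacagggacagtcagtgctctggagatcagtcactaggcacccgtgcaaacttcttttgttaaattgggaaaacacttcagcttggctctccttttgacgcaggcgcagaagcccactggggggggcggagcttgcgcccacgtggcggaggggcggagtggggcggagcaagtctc
Nfe2l2: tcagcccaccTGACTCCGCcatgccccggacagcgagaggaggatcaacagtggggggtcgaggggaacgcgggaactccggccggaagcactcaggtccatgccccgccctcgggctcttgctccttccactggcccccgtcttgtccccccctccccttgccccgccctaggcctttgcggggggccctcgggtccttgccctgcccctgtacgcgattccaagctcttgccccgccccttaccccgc

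Windows of 300 bases, from 250 before to 50 after the start, were found for 9 of the 10 members, with 10 windows in all. The core matched in 2 of the 10 windows, that of Nfe2l2, at TGACTCCGC beginning 240 bases before the start, and that of Sod1, at GCGTGGTCA on the other strand beginning 56 bases before the start (chr16:90220706-90220714). Of all 32851 windows of this length, 4071 (12.4%) held a match, and of the windows of the other pathway genes described below, 18 (17.3%) did. No match was found in the windows of Gsto1, Gsto2, Gpx1, Gpx3, Prdx4, Sod2 and Nqo1, which says only that these letters are not in this stretch. The GC content of the 250 bases before the RefSeq start ran from 42% for Gpx1 to 70.4% for Nfe2l2. For Gpx1 only the first 73 of these bases lie before the exon of the annotation used for counting. The stretches shown for Gpx3 and Prdx4 lie within the gene spans given below.

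Per kilobase of exon, the members spanned a wide range of levels. In RD islets Gpx3, which encodes the secreted glutathione peroxidase, was the highest at 398 ± 35.4 RPKM (reads per kilobase of exon, scaled to library size; mean ± SD, n = 7 here and for each group below), followed by Gpx1, the cytosolic glutathione peroxidase, at 49.0 ± 5.01 and Sod1, the cytosolic copper and zinc superoxide dismutase, at 28.5 ± 2.39. Prdx4, Nfe2l2, Sod2, Gsto1, Nqo1 and Hmox1 lay between 10.4 and 4.27 RPKM. Gsto2 was the lowest at 1.39 ± 0.154 RPKM. Neighbours in this order did not overlap between samples except Prdx4 with Nfe2l2, Gsto1 with Nqo1 and Nqo1 with Hmox1. In HFD islets Gsto2 moved from the tenth place to the eighth, at 4.83 ± 1.67 RPKM, where it overlapped with both of its neighbours, Gsto1 above and Hmox1 below. In HFD-O304 islets it was again the lowest, at 1.32 ± 0.101 RPKM. Catalase, which is not a member, was at 4.06, 4.40 and 4.31 RPKM in RD, HFD and HFD-O304 islets.

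**Figure D1:**
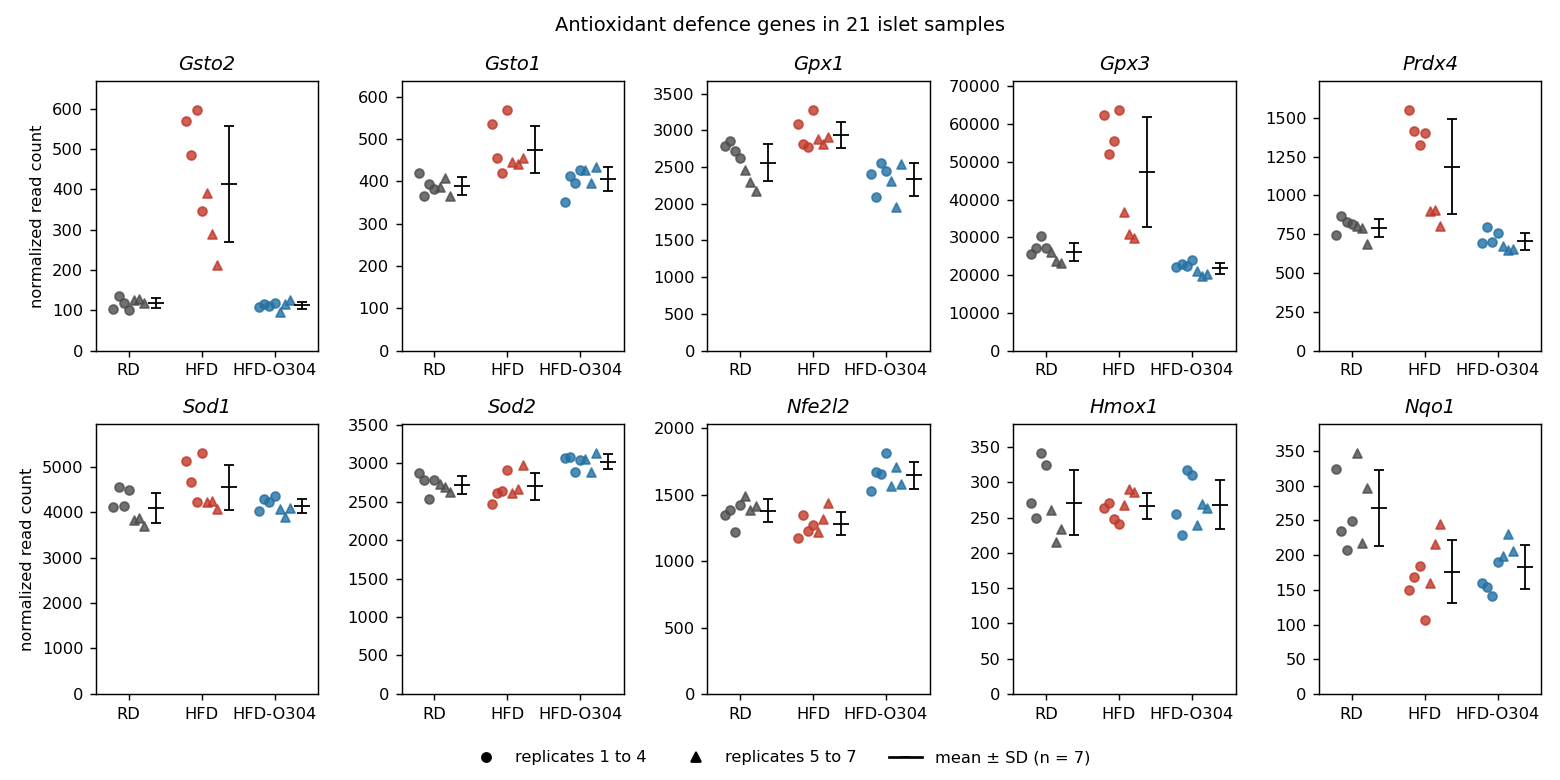
Normalized read counts (reads divided by the size factor of the library, y axis, starting at 0) of the 10 genes in RD, HFD and HFD-O304 islets. Circles are replicates 1 to 4, triangles are replicates 5 to 7, and bars give the mean ± SD of 7 samples. All HFD samples of Gsto2 lie above all other samples, and the HFD samples of Gpx3 and Prdx4 fall into a high group of circles and a lower group of triangles.

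Of the 10 members, 3 passed the threshold of the fit across all genes (edgeR quasi-likelihood fit, Benjamini-Hochberg adjusted p under 0.01) in HFD vs RD, where 3.54% of all genes did. All 3 were higher in HFD (2% of all genes) and none was lower (1.54%). In HFD-O304 vs RD 1 member passed and was higher, against 1.31% of all genes, with 0.404% higher and 0.903% lower. Between HFD-O304 and HFD 5 members passed, against 11.9% of all genes, 1 of them higher (5.08%) and 4 lower (6.79%). The groups did not overlap for 2, 2 and 5 members in these comparisons, where 1.35%, 1.56% and 6.17% of all genes did not overlap. Since the members were chosen on these same values, the counts are a description only.

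The omega-class glutathione transferases Gsto1 and Gsto2, which reduce dehydroascorbate, the oxidized form of vitamin C, with glutathione, are neighbours on chromosome 19. Gsto1 lies at chr19:47854970-47864790 and Gsto2 at chr19:47865534-47886324 on the plus strand of GRCm38, 743 bases apart, and both overlap Cfap43 on the opposite strand without sharing an exonic base with it. Gsto2 had a lowest, median and highest normalized count of 100.3, 118.6 and 135 in RD, 212, 391 and 597 in HFD, with 97.0, 114.8 and 125 in HFD-O304 islets. The HFD samples were above every sample of the other groups, and the RD and HFD-O304 samples overlapped. The reads behind these values ran from 44 in HFD-O304 replicate 2 to 594 in HFD replicate 3. The log2 difference was 1.79 ± 0.16 (SE) for HFD vs RD, a 3.46-fold higher level, and -1.86 ± 0.16 in HFD-O304 vs HFD, a 3.64-fold lower level, and both passed the threshold with each sample left out in turn and in all 10 other fits. In HFD-O304 vs RD it was -0.07 ± 0.17, with a 95% interval of -0.42 to 0.28.

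Gsto1 moved in the same direction by much less. Its lowest, median and highest normalized counts were 364, 387 and 419.6 in RD, 419.8, 455 and 569 in HFD, with 351, 413 and 433 in HFD-O304 islets. The RD and HFD ranges met without overlapping, and the HFD-O304 samples overlapped with both. The log2 difference of 0.28 ± 0.070 in HFD vs RD was just outside the threshold with all samples and inside it in 6 of the 31 other fits (without HFD replicate 3, HFD replicate 7 or HFD-O304 replicate 1, with another expression filter, with the library set as a term and with DESeq2), and that of -0.22 ± 0.070 in HFD-O304 vs HFD was outside it. The ratio of Gsto2 to Gsto1 in RPKM was 0.263 ± 0.0363 in RD, 0.757 ± 0.284 in HFD, against 0.240 ± 0.0215 in HFD-O304 islets, and its lowest HFD value, 0.401, was above the highest value of the other groups, 0.319. Within groups the genes did not vary together: the correlation of their deviations from the group means, on the log2 CPM scale over 21 samples, was -0.01. HFD replicate 3 had the highest Gsto2 and the lowest Gsto1 of the HFD samples.

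**Figure D2:**
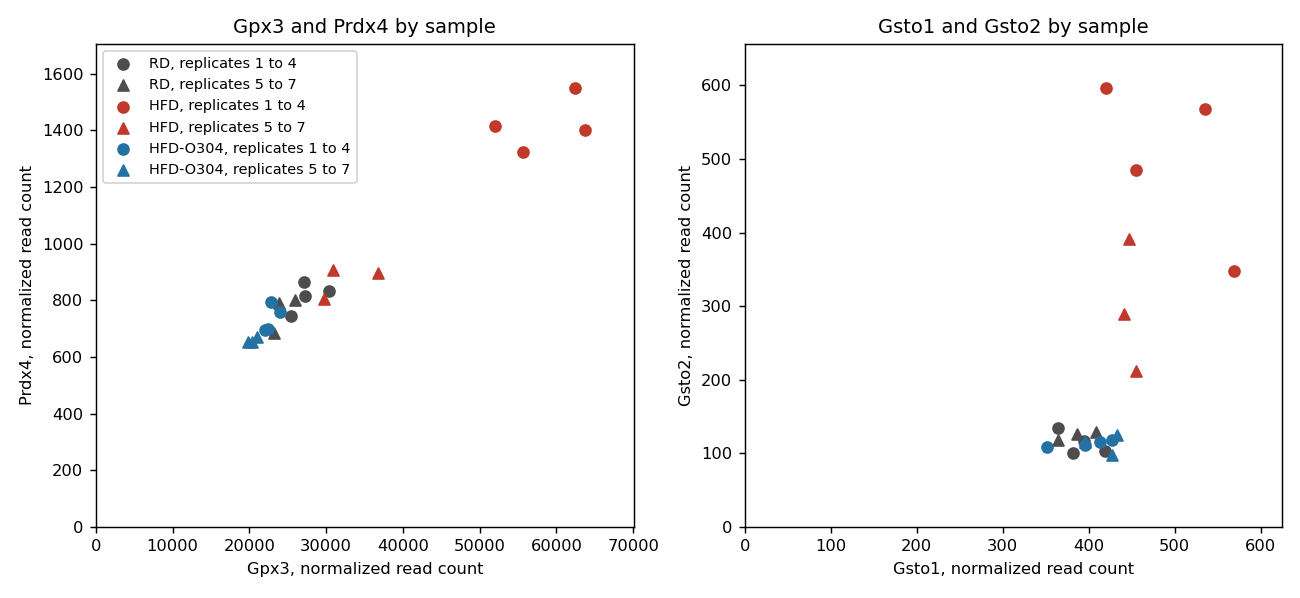
Normalized read counts of Prdx4 against Gpx3 (left) and of Gsto2 against Gsto1 (right) in 21 samples, with both axes starting at 0. Colours are the groups, circles are replicates 1 to 4 and triangles replicates 5 to 7. Prdx4 and Gpx3 lie along a line (r = 0.98 on the log2 CPM scale), whereas Gsto2 separates the HFD samples with little relation to Gsto1 within a group.

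Among the peroxidases, Gpx3 (chr11:54902453-54910377, plus strand) was the member with most reads. Its lowest, median and highest normalized counts were 23257, 25986 and 30317 in RD, 29766, 52064 and 63705 in HFD, with 19826, 22035 and 24003 in HFD-O304 islets. Of the 7 HFD samples, 6 were above every RD sample, and all 7 were above every HFD-O304 sample. The log2 difference was 0.85 ± 0.13 for HFD vs RD, a 1.80-fold higher level, and -1.11 ± 0.13 in HFD-O304 vs HFD, a 2.16-fold lower level. In HFD-O304 vs RD it was -0.26 ± 0.13, and 6 of the 7 HFD-O304 samples lay below every RD sample without the difference passing the threshold.

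Prdx4 (chrX:155323918-155340754, minus strand) encodes a peroxiredoxin of the endoplasmic reticulum (ER) that uses hydrogen peroxide to oxidize protein disulfide isomerases. It had normalized counts of 684, 802 and 866 (lowest, median, highest) in RD, 804, 1325 and 1549.8 in HFD, with 651, 694 and 794 in HFD-O304 islets. As for Gpx3, 6 of the 7 HFD samples were above every RD sample and all 7 were above every HFD-O304 sample. The log2 difference was 0.58 ± 0.11 in HFD vs RD, against -0.75 ± 0.11 in HFD-O304 vs HFD, and both passed the threshold, and it was -0.17 ± 0.11 in HFD-O304 vs RD.

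The HFD samples of Gpx3 and Prdx4 separated by library set. Gpx3 was at 52064 to 63705 in HFD replicates 1 to 4 and at 29766 to 36715 in replicates 5 to 7, and Prdx4 was at 1325 to 1549.8 and at 804 to 907, with no overlap between the sets in either gene. Within replicates 1 to 4, the log2 difference in HFD vs RD was 1.08 ± 0.078 for Gpx3 and 0.80 ± 0.079 for Prdx4. Within replicates 5 to 7, it was 0.41 ± 0.070 and 0.19 ± 0.079, and Prdx4 was then outside the threshold. Gsto2 was higher in HFD in both sets, by 2.12 ± 0.16 and 1.25 ± 0.18, with ranges that overlapped between the sets (347 to 597 and 212 to 391). Between HFD-O304 and HFD, Gpx3 differed by -1.36 ± 0.078 and -0.66 ± 0.070, Prdx4 by -0.96 ± 0.079 and -0.39 ± 0.079, and Gsto2 by -2.15 ± 0.16 and -1.40 ± 0.18, each past the threshold in both sets. RD and HFD-O304 samples showed no such separation for Gsto2, whereas in HFD-O304 islets Gpx3 was at 22035 to 24003 in the first set and 19826 to 21004 in the second, and Prdx4 at 694 to 794 and 651 to 672. In RD islets the sets did not overlap for Sod1 (4119 to 4549.7 and 3688 to 3878) and Gpx1 (2624 to 2859 and 2175 to 2461). Nor did they for Nqo1 in HFD-O304 islets (141.7 to 189.7 and 198 to 231). Read pairs on genes ranged from 27618749 to 44041180 in HFD replicates 1 to 4 and from 33175697 to 42454268 in replicates 5 to 7. The cause of the separation by set was not tested. When the difference between sets was itself tested for every gene (interaction of group and set in the edgeR fit), 0 of 27229 genes passed an adjusted p under 0.01 in any comparison, and 1862, 1516 and 1314 had an unadjusted p under 0.05 in HFD vs RD, HFD-O304 vs RD and HFD-O304 vs HFD. In HFD vs RD this interaction was -0.66 ± 0.11 for Gpx3, -0.60 ± 0.11 for Prdx4 and -0.86 ± 0.26 for Gsto2. In HFD-O304 vs HFD it was 0.68 ± 0.11, 0.55 ± 0.11 and 0.73 ± 0.26. HFD replicate 7 held the lowest Gsto2, Gpx3 and Prdx4 and the highest Nfe2l2, Nqo1 and Sod2 of the HFD samples. Without it the log2 differences in HFD vs RD were 1.91 ± 0.13 for Gsto2, 0.93 ± 0.12 for Gpx3 and 0.65 ± 0.10 for Prdx4, and 5 members were past the threshold in that comparison, with Gsto1 and Nqo1 added.

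**Figure D3:**
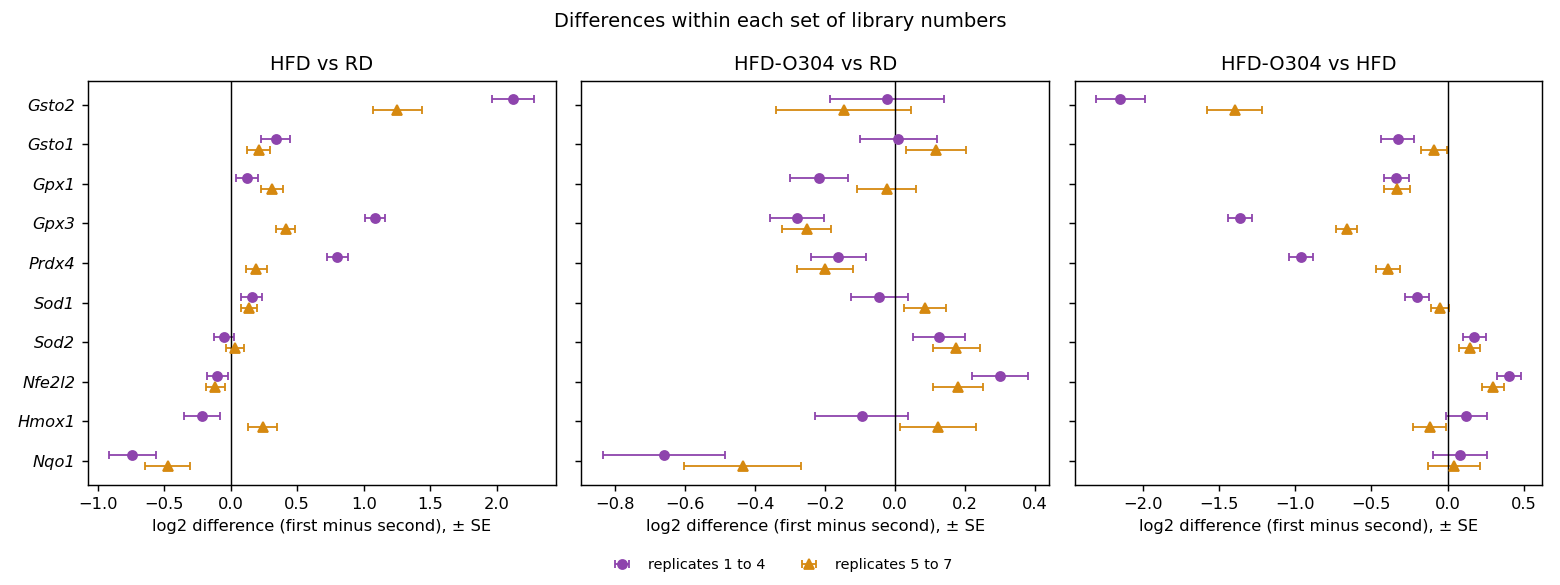
Log2 differences (x axis, first group minus second, ± SE) of the 10 genes in the 3 comparisons, computed within replicates 1 to 4 (circles) and within replicates 5 to 7 (triangles). Gsto2, Gpx3 and Prdx4 were further from 0 in replicates 1 to 4 in both comparisons that include HFD, and kept their direction in both sets.

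Gpx1 (chr9:108338903-108340343, plus strand) differed mainly between the HFD groups. Its lowest, median and highest normalized counts were 2175, 2624 and 2859 in RD, 2775, 2885 and 3277 in HFD, with 1951, 2402 and 2559.9 in HFD-O304 islets. The HFD and HFD-O304 samples did not overlap, and RD overlapped with both. The log2 difference was -0.33 ± 0.069 in HFD-O304 vs HFD, past the threshold, against 0.19 ± 0.069 in HFD vs RD, with -0.13 ± 0.069 in HFD-O304 vs RD. Within the library sets, the first of these was -0.34 ± 0.083 in replicates 1 to 4 and -0.33 ± 0.084 in replicates 5 to 7, where it no longer passed.

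No difference of the superoxide dismutases passed the threshold. Sod1 (chr16:90220754-90226329, plus strand) had medians of 4119, 4253 and 4085 normalized counts in RD, HFD and HFD-O304 islets and a whole range of 3688 to 5302, and none of its 3 log2 differences (0.15 ± 0.062 in HFD vs RD, 0.01 ± 0.062 in HFD-O304 vs RD, -0.13 ± 0.062 in HFD-O304 vs HFD) passed the threshold. Sod2 (chr17:13006846-13040063, plus strand), the manganese enzyme of mitochondria, was at 2535, 2735 and 2876 (lowest, median, highest) in RD, 2472, 2632 and 2977 in HFD, with 2884, 3049 and 3130.3 in HFD-O304 islets. Every HFD-O304 sample was above every RD sample, with a log2 difference of 0.15 ± 0.049 that did not pass the threshold. In HFD-O304 vs HFD it was 0.17 ± 0.049, also outside the threshold, although inside it without HFD replicate 7, with another expression filter and with DESeq2.

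Nfe2l2 (chr2:75675513-75704641, minus strand), the gene of NRF2, was the only member higher in HFD-O304 islets past the threshold. Its lowest, median and highest normalized counts were 1218, 1388 and 1491 in RD, 1173, 1273 and 1437 in HFD, with 1528, 1654 and 1814 in HFD-O304 islets. Every HFD-O304 sample was above all 14 samples of the other groups, which overlapped with each other. The log2 difference was 0.36 ± 0.056 in HFD-O304 vs HFD, past the threshold with each sample left out, and -0.11 ± 0.056 in HFD vs RD. In HFD-O304 vs RD it was 0.25 ± 0.056, and of the 21 fits that leave out 1 sample, 7 kept it past the threshold (those without RD replicates 2, 4 or 5, HFD replicates 1, 2 or 7, or HFD-O304 replicate 1), with differences of 0.23 to 0.27 over all 21. Within the library sets the difference from HFD was 0.40 ± 0.080 and 0.30 ± 0.072, and only the first passed the threshold. The difference from RD was 0.30 ± 0.080 and 0.18 ± 0.072 in these sets, and neither passed. It was also outside the threshold when HFD-O304 and RD were fitted alone.

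Hmox1 and Nqo1, both known as targets of NRF2, did not pass the threshold in the comparisons of HFD-O304 in which Nfe2l2 did. Hmox1 (chr8:75093621-75100589, plus strand), the heme oxygenase that degrades heme, had medians of 261, 267 and 263 normalized counts in RD, HFD and HFD-O304 islets, and its log2 differences were -0.03 ± 0.099, -0.00 ± 0.099 and 0.02 ± 0.099 in HFD vs RD, HFD-O304 vs RD and HFD-O304 vs HFD, with 95% intervals of -0.23 to 0.18, -0.21 to 0.20 and -0.19 to 0.23. Within the library sets, the log2 difference of Hmox1 in HFD vs RD was -0.22 ± 0.13 in replicates 1 to 4 and 0.24 ± 0.11 in replicates 5 to 7, and neither passed the threshold. Nqo1 (chr8:107388225-107403206, minus strand), a quinone reductase, was at 208, 249 and 347 (lowest, median, highest) in RD, 106.1, 169 and 245 in HFD, with 142, 189.7 and 231 in HFD-O304 islets. The RD range overlapped with both others, and 5 of the 7 HFD samples and 6 of the 7 HFD-O304 samples were below every RD sample. Its log2 difference was -0.61 ± 0.15 in HFD vs RD, just outside the threshold, and inside it in 7 of the 31 other fits: without RD replicate 3, HFD replicate 6 or HFD replicate 7, with no filter beyond 1 read, with the replicate block, with the library set as a term and with DESeq2. Within the library sets it was -0.74 ± 0.17 and -0.47 ± 0.17. It was -0.54 ± 0.15 in HFD-O304 vs RD, against 0.07 ± 0.15 in HFD-O304 vs HFD, where the 95% interval ran from -0.26 to 0.39. Nqo1 thus had a log2 difference from RD under -0.5 in both HFD groups, and its deviations from the group means ran against those of Gpx3 (r = -0.65) and Sod1 (r = -0.65) over the 21 samples.

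**Figure D4:**
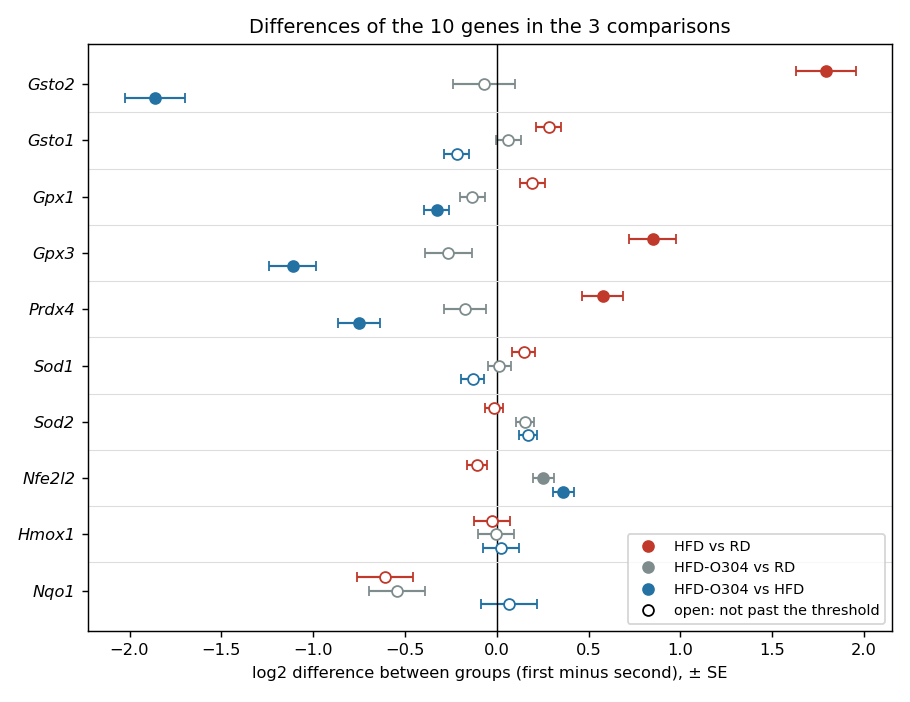
Log2 differences (x axis, first group minus second, ± SE) of the 10 genes in HFD vs RD, HFD-O304 vs RD and HFD-O304 vs HFD. Filled points passed the threshold of the fit across 27229 genes. Gsto2, Gpx3 and Prdx4 are filled on opposite sides of 0 in the comparisons of HFD with RD and of HFD-O304 with HFD, and Nfe2l2 is filled above 0 in both comparisons of HFD-O304.

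Across the 21 samples, among genes whose mean normalized count was 50 or more, the log2 CPM of Gpx3 was most like that of Chgb, which encodes the granule protein chromogranin B (Pearson r = 0.98, Spearman ρ = 0.95), followed by Prdx4 and Ttr, the gene of transthyretin (both r = 0.98). Prdx4 was most like Ttr and Gpx3 (both r = 0.98), then Aurka (r = 0.97). The deviations of Gpx3 from its group means had a correlation of 0.95 with those of Chgb and 0.94 with those of Prdx4. Chgb and Ttr were also separated by library set in HFD islets, with Chgb at 157353 to 185209 normalized counts in replicates 1 to 4 and 66963 to 90735 in replicates 5 to 7. Gsto2 was most like Gatm, which encodes an enzyme of creatine synthesis (r = 0.95, ρ = 0.76), and Slc4a10 (r = 0.95, ρ = 0.85), and Nfe2l2 was most like Armc4 (r = 0.94). Hmox1 had the weakest best match, Rtf2 (r = 0.74). These correlations are over samples that share their group, and values from the same library share its depth.

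Beside the members, 85 other genes of the same pathways were compared, in 7 lists also chosen with earlier results of these data known, and 83 of them were tested. In HFD vs RD, 6 of the 83 passed an adjusted p under 0.01, 3 higher and 3 lower, with a median log2 difference of 0.07 against -0.00 over all genes. The 3 that rose were Txnip, Txn1 and Ccs, and the 3 that fell were the mu-class glutathione transferases Gstm1, Gstm2 and Gstm7. The count of 6 became 2 or 3 when any of RD replicates 5 to 7 or HFD replicates 1 to 4 was left out, and 13 when HFD replicate 7 was. In HFD-O304 vs RD, 2 of the 83 passed, both lower, with a median of -0.00 against 0.01 over all genes, and 1 did when RD replicate 2, 3 or 4 or HFD-O304 replicate 5, 6 or 7 was left out. In HFD-O304 vs HFD, 19 passed, 6 higher and 13 lower, with a median of -0.07 against 0.03. These counts are 7.23%, 2.41% and 22.9% of the 83, against 3.54%, 1.31% and 11.9% of all genes. In HFD-O304 vs HFD, 5.08% of all genes were higher and 6.79% lower past the threshold. The same shares of all genes apply to each list below. They are over all 27229 genes, which include genes with as few as 10 reads in total. With another expression filter, which kept 17788 genes, the list counts were 8, 2 and 22. Of all the genes kept by that filter, 6.40%, 2.21% and 19.7% passed in the 3 comparisons. Genes of these lists that are named here and are neither the largest rise or fall of their list nor a partner in a member's reaction were chosen after their values were seen, to complete a count of 5 or fewer.

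Of the 11 genes of glutathione synthesis and turnover, none passed in any comparison by edgeR. An unadjusted p under 0.05 was seen for 2 of them in HFD vs RD, 3 in HFD-O304 vs RD, plus 5 in HFD-O304 vs HFD. Over all genes, 20.985%, 14.4% and 29.3% had an unadjusted p under 0.05 in these comparisons, against 18.2%, 27.3% and 45.5% of this list. Gclc and Gclm, the subunits of glutamate-cysteine ligase, had medians of 1297, 1313 and 1340.3 and of 2750.0, 2565 and 2975 normalized counts in RD, HFD and HFD-O304 islets. The largest log2 difference of the pair was that of Gclm in HFD-O304 vs HFD, at 0.19 ± 0.055 (adjusted p = 0.0157).

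The glutathione transferases other than Gsto1 and Gsto2 had 19 of 21 genes tested. In HFD vs RD 3 (15.8%, against 1.54% of all genes) fell and none rose, with a median log2 difference of -0.17 over the list. Gstm1 was at 748 to 1203 normalized counts in RD, 469 to 945 in HFD, with 1159 to 1609.7 in HFD-O304 islets. It was lower in HFD than in RD (log2 difference -0.55 ± 0.12, edgeR adjusted p = 0.00421) and higher in HFD-O304 than in HFD (1.07 ± 0.12, adjusted p = 3.72e-07), with no overlap between the HFD groups. The first of these differences passed the threshold in 22 of 31 other fits and the second in all 31. Gstm2 was also lower in HFD than in RD (log2 difference -0.53 ± 0.084, adjusted p = 0.000256), without overlap, and so was Gstm7 (-0.50 ± 0.12, adjusted p = 0.0099), which passed in 9 of the 31 other fits. With O304, 3 genes of the list rose against HFD (Gstm1, Gstm2, Gstt1) and 2 fell (Mgst3, Gstm5), with a log2 difference of -0.34 ± 0.067 for Mgst3, a microsomal transferase (adjusted p = 0.000511). The call of Gstm5 passed in 10 of the 31 other fits. The mu-class genes are close paralogs, and reads that match several of them are not in the counts, so that the split between them is uncertain. Both directions of Gstm1 were opposite to those of Gsto2, and the α-cell genes Gcg and Irx2, given above, were also lower in HFD islets; their part in the difference of Gstm1 was not tested.

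In the list of peroxidases, superoxide dismutases and catalase, all 12 genes had a log2 difference above 0 in HFD vs RD. The median was 0.18 against -0.00 over all genes, and 1 (8.33%, against 3.54% of all genes) passed. This was Ccs, the chaperone that loads copper into SOD1, at 0.28 ± 0.064 (adjusted p = 0.00659), with medians of 545, 635 and 548 normalized counts in RD, HFD and HFD-O304 islets. From HFD to HFD-O304, 3 of the 12 (25%, against 6.79% of all genes) fell. Sod3, the secreted superoxide dismutase, fell by 1.08 on the log2 scale (SE 0.17, adjusted p = 3.65e-05), from 132 to 259 normalized counts in HFD to 70.3 to 126 in HFD-O304 islets, and Gpx7, which passed in 18 of the 31 other fits, and Ccs were the others. The difference of Ccs in HFD vs RD passed in 21 of 31 other fits. Cat, the gene of catalase, had medians of 397, 402 and 409.8 normalized counts in the 3 groups, and its largest log2 difference was 0.12 ± 0.094 (adjusted p = 0.543).

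Thioredoxin is the thiol protein that reduces peroxiredoxins, and Txnip encodes a protein that binds and inhibits it. In HFD vs RD both rose, Txnip by 1.27 ± 0.24 on the log2 scale (adjusted p = 0.00113) and Txn1 by 0.40 ± 0.089 (adjusted p = 0.00546), and the other 10 genes of the list did not pass. The call of Txn1 held in 20 of the 31 other fits and was lost within both library sets, in the fit of those groups alone and without RD replicate 1, 5, 6 or 7 or HFD replicate 1, 2, 4 or 5. Txnip was at 5529 to 8037 normalized counts in RD islets, at 14665 to 30496 in HFD replicates 1 to 4 and at 6859 to 8970 in HFD replicates 5 to 7. All HFD samples of the first set were above every RD sample, whereas those of the second overlapped with RD, and within replicates 5 to 7 the log2 difference was 0.29 and did not pass (adjusted p = 0.169). The difference of Txnip between the sets, tested as an interaction, was -1.40 ± 0.24 (adjusted p = 0.0567). In HFD-O304 vs HFD Txn1 fell by 0.49 on the log2 scale (adjusted p = 0.000197), while Txnip differed by -0.77 ± 0.24 without passing (adjusted p = 0.0207). In HFD-O304 islets Txnip was at 9658 to 11309 in replicates 1 to 4, below every HFD sample of that set. In replicates 5 to 7 it was at 7672 to 9121 and overlapped with HFD. The interaction with the set was 1.22 ± 0.24 in this comparison (adjusted p = 0.107). Gsr, glutathione reductase, had medians of 1568, 1568 and 1704 normalized counts in the 3 groups and no adjusted p below 0.299.

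Among the 9 regulators of NRF2, Bach2, a repressor that binds the same kind of element together with small MAF proteins, fell in HFD-O304 vs HFD by 1.35 on the log2 scale (SE 0.14, adjusted p = 9.42e-08) and in HFD-O304 vs RD by 0.82 (SE 0.14, adjusted p = 0.000796). Its normalized counts were 147 to 307 in RD, 258 to 450.5 in HFD, with 129 to 149 in HFD-O304 islets, the group in which Nfe2l2 was highest. Whether the levels of Bach2 and Nfe2l2 are related was not tested. No other regulator passed in any comparison. Bach2 alone is 11.1% of the list, against 11.9% of all genes in HFD-O304 vs HFD and 1.31% in HFD-O304 vs RD. Keap1 had medians of 2291, 2672 and 2697 in the 3 groups, and its largest difference was 0.16 ± 0.077 in HFD vs RD (adjusted p = 0.233). Of the 14 further NRF2 targets and genes of NADPH supply, none passed by edgeR against RD in either HFD group, where 5 (HFD) and 2 (HFD-O304) had an unadjusted p under 0.05 (35.7% and 14.3% of the list, against 20.985% and 14.4% of all genes). Between HFD-O304 and HFD, 3 rose (Idh2, Idh1, Fth1) and 2 fell (Osgin1, Pgd), with Fth1 past the threshold in only 12 of the 31 other fits. Idh2, the mitochondrial isocitrate dehydrogenase that makes NADPH, was higher by 0.33 ± 0.079 (adjusted p = 0.00328), and the log2 difference of Osgin1, which was lower, was -0.71 ± 0.13 (adjusted p = 0.000156).

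The 6 genes of thiol oxidation in the ER, the compartment of Prdx4, had a median log2 difference of 0.28 in HFD vs RD, where none passed by edgeR and 4 (66.7%, against 20.985% of all genes) had an unadjusted p under 0.05. All 6 were below 0 in HFD-O304 vs HFD, with a median of -0.56 against 0.03 over all genes. Past the threshold, 4 (66.7%, against 6.79% of all genes) fell: Pdia6, P4hb, Pdia4 and Qsox1, of which Pdia4 passed in 19 of the 31 other fits. Pdia6, a protein disulfide isomerase, was at 19284 to 37615 normalized counts in RD, 26013 to 60717 in HFD, with 18703 to 24858 in HFD-O304 islets, and fell by 0.90 on the log2 scale (SE 0.15, adjusted p = 6.96e-05) with no overlap between the HFD groups. Ero1lb, the oxidase of β-cells that passes electrons from these isomerases to oxygen and so makes hydrogen peroxide, was lower in HFD-O304 than in RD islets (log2 difference -0.34 ± 0.067, adjusted p = 0.00312), which passed in 24 of 31 other fits, and had a log2 difference of -0.11 ± 0.067 in HFD vs RD.

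**Figure D5:**
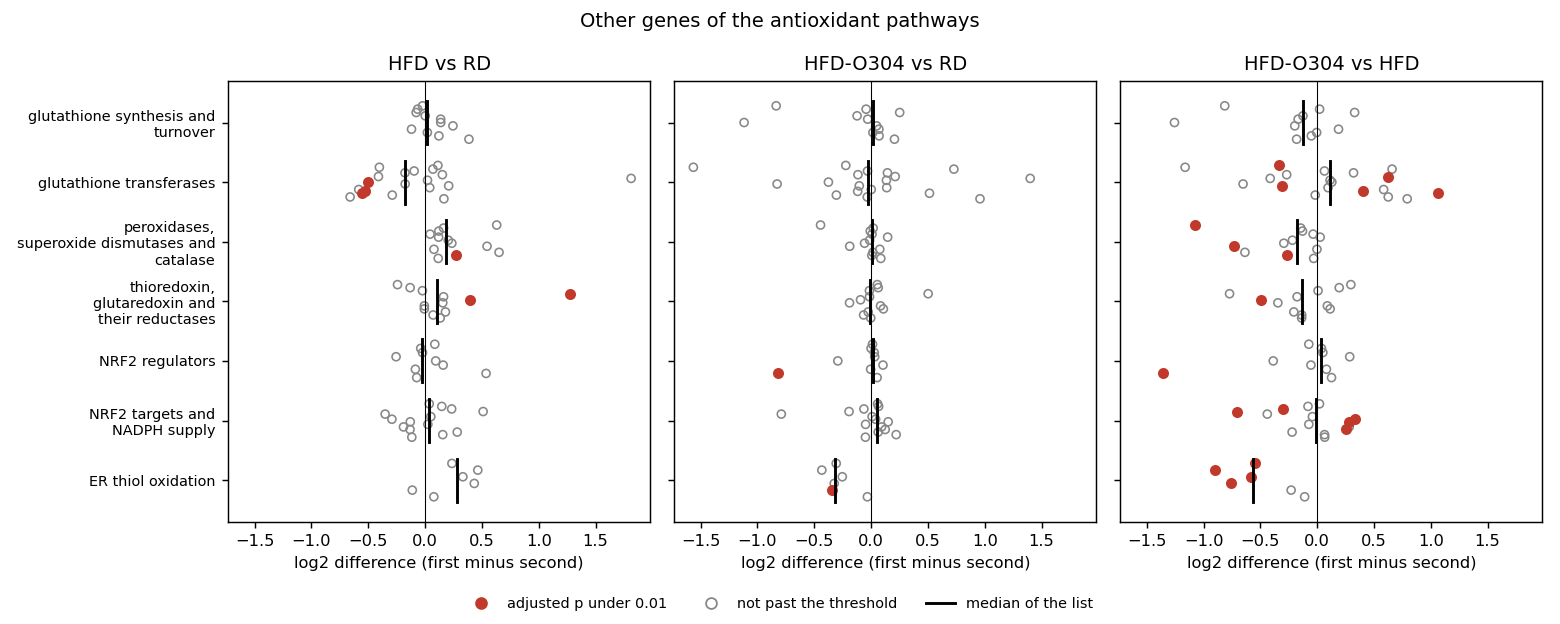
Log2 differences (x axis, first group minus second) of 83 other antioxidant genes in 7 lists for the 3 comparisons. Each point is a gene, filled points passed an adjusted p under 0.01, and the vertical bars are list medians. Most filled points (19) are in HFD-O304 vs HFD, where the list of ER thiol oxidation lies wholly below 0 and its median is -0.56.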

How the data were processed

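RNA-seq of islets from RD, HFD and HFD-O304 mice was analysed (7 samples per group, 21 in all). Per the labels and the methods, the authors checked reads with FastQC, aligned them with STAR to GRCm38 (Ensembl 96) and deposited counts of read pairs per gene for each sample, without normalization; the STAR version is not given in the sources used here. Pairs not assigned to 1 gene, 18.5% to 24.9% per sample, were left out: 5.56% to 11.2% unmapped, 7.28% to 9.03% matching several places, 2.97% to 5.12% outside genes and 0.935% to 1.04% in more than 1 gene. The column of the strand with most reads was used (28.8 to 36.3 times the other). All 55536 identifiers matched the annotation.

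The 10 members and the gene lists were chosen with earlier results of these data known. Genes with at least 10 reads were fitted for all groups together with edgeR 4.0.16 (TMM, quasi-likelihood, no covariates) in R 4.3.3 and called at a Benjamini-Hochberg adjusted p under 0.01. Every adjusted p is from this fit unless another is named. Normalized counts were counts divided by DESeq2 size factors, and RPKM used TMM-scaled CPM and union exon length. Named were all members, the largest called rise and fall of each list and comparison, 6 genes that complete a member's reaction, and the 3 genes most correlated with a member. Alternatives were DESeq2 1.42.0, other normalization, filters, strand, thresholds, samples, a library set term, a replicate block and each sample left out. Scripts were tested on simulated data. Replicate pairs of a group differed beyond sampling noise (chi-square per gene of at least 8.05). Nothing in the labels says that pools were drawn from separate experiments, so p-values measure the spread between these samples. Promoter windows came from RefSeq (GRCm38.p6), and exon bases were trimmed from the stretches shown. Figures used Python 3.11.15, pandas 2.3.3 and matplotlib 3.10.9. ChIP-seq was not analysed here, and some cell type markers are not reported here.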

Additional observations from a re-analysis of the deposited data

How the results depend on the processing

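No member past the threshold changed sign under any setting; outside it, differences near 0 of Sod1, Sod2, Hmox1 and Nqo1 changed sign in some. The largest moves of the members' differences were within replicates 5 to 7, in both comparisons that include HFD. In HFD vs RD, Gsto2 was 1.25, Gpx3 0.41, Prdx4 0.19 and Hmox1 0.24, against 1.79, 0.85, 0.58 and -0.03 with all samples. In HFD-O304 vs HFD, Gsto2 was -1.40, Gpx3 -0.66 and Prdx4 -0.39, against -1.86, -1.11 and -0.75 with all samples. The count of other antioxidant genes past the threshold depended more on the setting. In HFD vs RD, 6 became 15 at an adjusted p under 0.05, 2 when fitting those groups alone, 15 with a replicate block, 15 with the library set as a term, 2 within replicates 1 to 4, 3 within replicates 5 to 7, 14 with DESeq2, and 2 to 13 with 1 sample left out. In HFD-O304 vs RD, 2 became 5, 5, 4, 5 and 0 under the first 5 of these settings, 4 with DESeq2, and 1 to 3 with 1 sample left out; the count of 0 is by edgeR, and with all samples 20 of the 83 genes (24.1%, against 14.4% of all genes) had an unadjusted p under 0.05. In HFD-O304 vs HFD, 19 became 30 at an adjusted p under 0.05, 11 within replicates 5 to 7 and 13 to 24 with 1 sample left out. The cause was not tested, beyond the fewer samples of the within-set fits. Over all genes, 963, 356 and 3230 calls became 1758, 727 and 4045 with DESeq2 and 1577, 543 and 3763 with the replicate block. The DESeq2 calls were among 17726, 18782 and 20365 genes given an adjusted p (9.92%, 3.87% and 19.9%). With the library set as a term, these 963, 356 and 3230 calls became 1611, 543 and 3795. Same-numbered samples of 2 groups correlated above 0.1 in 15 of 21 pairs (lowest -0.53, highest 0.69). The main fit nevertheless had no term for the replicate number or the library set. Whether the shared numbers pair the samples was not tested. Of the members, Nqo1 in HFD vs RD passed the threshold with the block, with the library set as a term, with no filter beyond 1 read and with DESeq2, and Gsto1 with the library set as a term, with another expression filter and with DESeq2. Sod2 in HFD-O304 vs HFD passed with another expression filter and with DESeq2. The shallowest library, HFD-O304 replicate 2, limits genes with few reads, and without it the log2 differences of HFD-O304 vs HFD were -1.86 for Gsto2 and -1.12 for Gpx3.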
